A study of Kluyveromyces lactis with 12 samples.

Results

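The response to arsenite of a Kluyveromyces lactis strain that lacks KlYap8 was read from the deletion-strain channel of two-colour Agilent arrays. The channel was chosen by the strain and dye labels, on the 4 arrays of arsenite-treated cells and the 4 arrays of untreated cells. These are 8 of the 24 channels of a series of 12 arrays. Each array set RNA of the deletion strain, Klyap8∆, against RNA of the wild type, Klwt, grown under the same condition, and the wild type carried the other dye. Cells grew exponentially in YPD, a rich medium with glucose, and were harvested untreated or after 30 min with sodium arsenite. The treatment labels give 25 mM arsenite and the treatment protocol gives 0.1 mM, so the dose is not settled here. The design text describes 4 biological experiments per condition with a dye switch. In each group the deletion strain was labelled with Cy3 on 2 arrays and with Cy5 on the other 2. The labels do not say how the deletion was built or whether it is 1 clone.

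Yap8, also called Arr1, is a bZIP transcription factor that yeasts use against arsenic. In Saccharomyces cerevisiae it switches on ARR2, which encodes an arsenate reductase, and the arsenite exporter gene ARR3. Arsenite enters cells through aquaglyceroporins such as Fps1, binds thiol groups of proteins and of glutathione, and is pumped into the vacuole as a glutathione conjugate by Ycf1. In that yeast other regulators, which act on chaperones, the proteasome, thiol redox enzymes and sulfur uptake, also answer to arsenite. The comparison asks what arsenite still changes when Yap8 is missing. Gene names are mostly those of S. cerevisiae counterparts, and roles given here refer to that yeast.

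A level is the normalized log2 intensity of a gene in 1 channel, and a change is the arsenite mean minus the untreated mean of the deletion strain, fitted by limma on the 16 channels of the 8 arrays. A gene was called at a Benjamini-Hochberg adjusted p under 0.05 over all 5065 genes tested. Median raw signals of the deletion channel lay between 1383 and 7526 on the 8 arrays, against local backgrounds of 20 to 39. Between 98.7% and 99.96% of tested genes were well above background in that channel. Untreated replicate 4 stood apart. Its levels correlated with those of the other untreated arrays at a mean r of 0.938 over genes, against 0.971 to 0.975 for the other 3 and 0.987 to 0.993 among the arsenite arrays. In a separate least-squares fit of group and dye to the 8 deletion channels, the root mean square deviation was 0.298 (log2) in untreated and 0.165 in arsenite channels. All 8 arrays lay on 1 slide and carried 1 scan time. RNA came from whole cultures, so fewer cells with a transcript and less of it per cell cannot be told apart.

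The deleted gene was taken as ARR1 (KLLA0E00265g). Its deletion-strain levels were 10.87, 10.82, 10.73 and 11.56 untreated and 10.59, 10.67, 10.54 and 10.59 under arsenite. Wild-type levels were 12.23, 12.04, 12.07 and 12.17 untreated and 12.78, 12.72, 12.73 and 12.52 under arsenite. ARR1 was lower in the deletion strain than in the wild type on all 8 arrays, and a signal above background remained in the deletion strain on each. Where the probe lies against the part deleted is not stated, so this signal checks nothing about the label. In the deletion strain the ARR1 signal under arsenite minus that without it was -0.40 (SE 0.17), which was not called (limma adjusted p = 0.117), though the 2 groups did not overlap.

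Without Yap8, arsenite still raised many chaperone, proteasome, oxidant repair and iron-sulfur assembly genes and lowered part of the sterol and cell cycle genes. In the deletion strain 829 of 5065 genes were called (16.4%), 481 higher (9.5%) and 348 lower (6.87%). Of these, 103 rose and 43 fell at least 2-fold, 20 rose and 16 fell at least 4-fold, and 4 rose and 3 fell at least 8-fold. The median change of all genes was -0.03, and 47.0% of genes had a change above 0. Arsenite and untreated deletion channels did not overlap for 1254 genes (24.8% of those tested), of which 783 were called. In the wild-type channels of the same arrays 1694 genes were called (33.4%), and the median size of the change was 0.32 there against 0.24 in the deletion strain. Both strains share each array, so the lists are set side by side here, and only the test of the difference, given last, bears on whether a response differed.

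Single arrays moved these counts. Without untreated replicate 4 the deletion strain had 1556 calls (797 higher and 759 lower), which held 828 of the 829. For 257 of the 481 risen genes that array had the lowest of the 4 untreated levels, and for 244 of the 348 fallen genes it had the highest. The like counts over all genes tested were not taken, so these numbers do not set called genes apart. Without arsenite replicate 1, 2, 3 or 4 there were 473, 508, 485 and 527 calls, and 468, 506, 472 and 524 of the 829 remained. With no normalization between arrays the median change of all genes was 0.26, and 142 genes were called, 140 higher (98.6%) and 2 lower, against 58.0% higher in the 829. All 829 kept their sign there, and nearly every call of a fallen gene below was lost with that step left out.

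**Figure D1:**
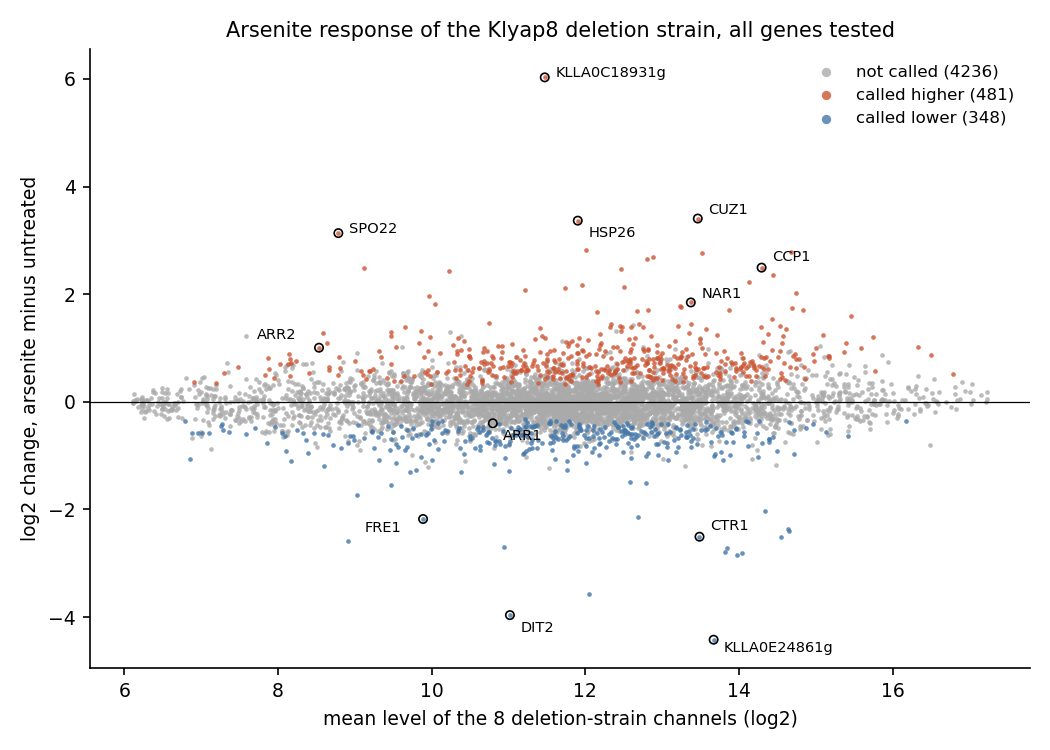
Log2 change under arsenite (y axis) against the mean log2 level of the 8 deletion-strain channels (x axis) for the 5065 genes tested, with 481 genes called higher, 348 called lower and some named genes ringed. The largest rise, KLLA0C18931g at 6.03, stands far above the next, CUZ1 at 3.41, while ARR1 lies near 0 at -0.40.

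The 15 genes that rose most and the 15 that fell most were taken from called genes whose 2 groups of channels did not overlap, so that separation was a condition of the choice. The gene that rose most was KLLA0C18931g, which has no symbol in the RefSeq table used here. Its levels were 8.99, 8.84, 8.58 and 7.42 in untreated and 14.55, 14.46, 14.50 and 14.44 in arsenite-treated deletion cells. The arsenite channels lay close together, untreated replicate 4 was the lowest, and the groups were over 5 log2 units apart. The change of 6.03 (SE 0.32, limma adjusted p = 7.85e-09) is a 65.3-fold rise. In the wild type it was 5.70, and the difference between strains of 0.33 (SE 0.31) was not called (adjusted p = 0.68).

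CUZ1 (KLLA0D10978g) encodes a zinc-finger protein that binds Cdc48 and the proteasome and is needed for arsenite resistance in S. cerevisiae. Its levels were 11.60, 11.79, 11.73 and 11.93 untreated and 14.94, 15.48, 14.97 and 15.28 under arsenite. Every arsenite channel stood at least 3 log2 units above every untreated one, with a 10.6-fold rise (change 3.41, SE 0.16, limma adjusted p = 4.69e-09). HSP26 (KLLA0F18909g), a small heat shock protein that holds unfolded proteins, had levels of 10.64, 10.83, 11.41 and 8.002 untreated and 13.60, 13.85, 13.003 and 13.89 under arsenite. Untreated replicate 4 was far below the other untreated arrays, and the groups did not overlap. The HSP26 change was 3.37 (SE 0.56, limma adjusted p = 9.11e-04), with an SE over 3 times that of CUZ1.

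SPO22 (KLLA0C09328g), a meiosis gene, rose from 7.22 ± 0.15 to 10.35 ± 0.45 (mean ± SD, n = 4 each). CSM3, of the replication fork checkpoint, rose by 2.50 and ECM13, a gene of unknown function, by 2.47. CCP1 (KLLA0B07557g), the mitochondrial cytochrome c peroxidase, had levels of 12.94, 13.20, 13.23 and 12.83 untreated and 15.60, 15.66, 15.31 and 15.59 under arsenite. Its channels were tight in both groups and did not overlap (change 2.49, SE 0.18, limma adjusted p = 3.74e-07). SRX1, the sulfiredoxin that reactivates oxidized peroxiredoxins, rose by 2.36 (SE 0.22) and HSP78, a mitochondrial disaggregase, by 2.22 (SE 0.22). The other 6 of the 15 highest have no symbol. They are KLLA0F24948g (2.82), KLLA0C01562g (2.78), KLLA0D01243g (2.77), KLLA0E03763g (2.69), KLLA0C14993g (2.66) and KLLA0C00198g (2.42). All 15 were also called higher in the wild type, none of the 15 was called in the difference between strains, and all 15 calls held under each of the 18 alternative settings tried. The fitted difference was above 0 for KLLA0C18931g alone. For the others the rise was smaller in the deletion strain, down to a difference of -0.88 (SE 0.28, limma adjusted p = 0.19) for KLLA0E03763g.

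The gene that fell most was KLLA0E24861g, again without a symbol. Its levels were 15.57, 15.68, 15.75 and 16.53 untreated and 11.13, 11.39, 11.91 and 11.41 under arsenite, a 21.4-fold fall (change -4.42, SE 0.36, limma adjusted p = 1.44e-06). Its arsenite channels were all far below its untreated ones. It is the one gene of the 15 lowest whose call held under every alternative. Its neighbour in the RefSeq gene order, KLLA0E24883g, fell by 3.57 on the log2 scale (SE 0.57). DIT2 (KLLA0C06743g), a cytochrome P450 that makes the dityrosine of the spore wall, went from 12.65, 12.96, 13.01 and 13.38 to 9.19, 8.96, 9.10 and 8.90. All 4 arsenite channels of DIT2 lay over 3 log2 units below all untreated ones (change -3.96, SE 0.65, limma adjusted p = 8.01e-04). DTR1, the transporter of the same spore wall precursor, fell by 2.59 (SE 0.37).

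CTR1 and FRE1 were also among the 15 lowest. CTR1 (KLLA0B11407g), the high-affinity copper transporter, had levels of 14.10, 14.93, 14.21 and 15.72 untreated and 12.03, 12.15, 12.51 and 12.24 under arsenite (change -2.51, SE 0.42, limma adjusted p = 9.11e-04). FRE1 (KLLA0F04950g), a plasma membrane reductase of iron and copper, had levels of 10.67, 11.09, 10.18 and 11.98 and 9.02, 8.51, 8.98 and 8.69 (change -2.18, SE 0.34, limma adjusted p = 6.16e-04). For both, untreated replicate 4 was the highest channel, and the groups did not overlap. ATX1, a copper chaperone, had a fitted change of -0.995 (limma adjusted p = 0.0152), a call lost without arsenite replicate 1 or 3 or untreated replicate 2 (log2 change -0.99 to -0.92).

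A set of 7 of the 15 lowest genes, none with a symbol, lay within 4 genes of a chromosome end. They were KLLA0D00187g (-2.85), KLLA0B00187g (-2.80), KLLA0D19965g (-2.79), KLLA0C00176g (-2.71), KLLA0A00154g (-2.52), KLLA0F00220g (-2.40) and KLLA0E00177g (-2.36). For KLLA0D00187g the levels were 14.80, 15.37, 15.23 and 16.23 untreated and 12.71, 12.57, 12.19 and 12.74 under arsenite, with untreated replicate 4 the highest and no overlap. Close to these were the levels of KLLA0B00187g, 14.805, 15.45, 15.26 and 16.24 untreated and 12.685, 12.64, 12.39 and 12.83 under arsenite. Of 176 tested genes among the 15 outermost of a chromosome end, 15 were called higher and 23 lower, against 9.5% and 6.87% of all genes. The like counts within 4 genes of an end were not taken. Probe sequences were not compared, so near-identical copies may share signal, and the 7 genes above may not be 7 separate results. KLLA0A04906g (-2.69) and KLLA0F09427g (-2.15) complete the 15. The call of KLLA0F09427g was lost without arsenite replicate 1 or 3 or untreated replicate 2 (log2 change -2.13 to -1.99). With no normalization between arrays 14 of the 15 lost their call, and each kept a negative change.

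**Figure D2:**
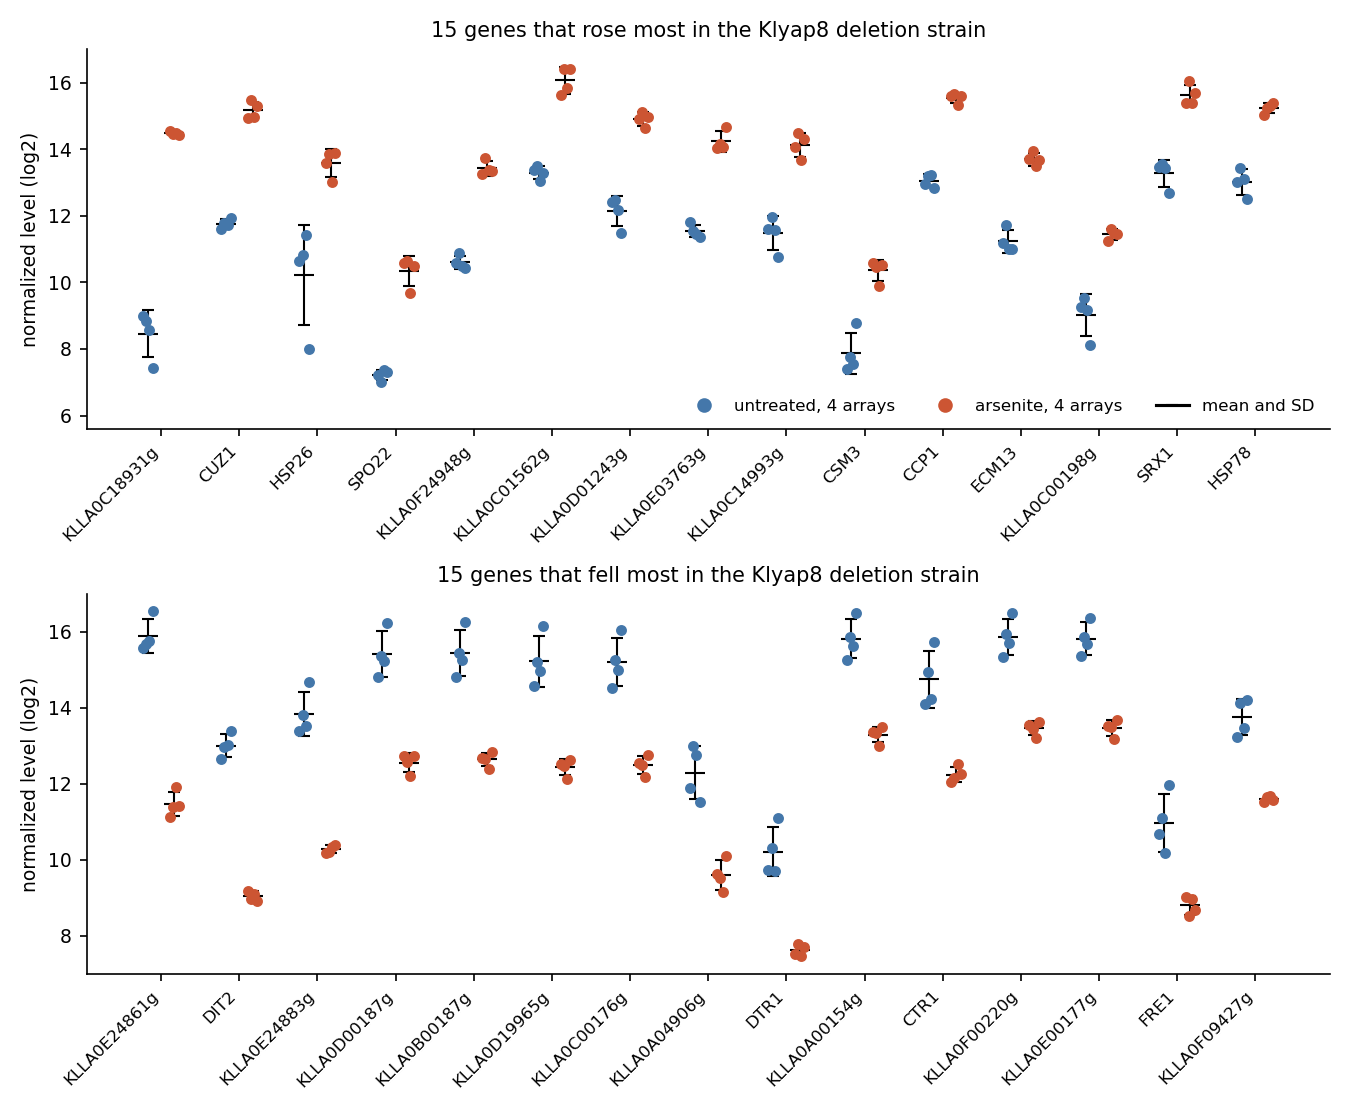
Normalized log2 levels (y axis) of the 15 genes that rose most (upper panel) and the 15 that fell most (lower panel) in the 4 untreated and 4 arsenite deletion-strain channels, with means and SDs. Groups that do not overlap were a condition of the choice, and HSP26 shows the widest untreated spread, with untreated replicate 4 far below the others, which lie at 10.64 to 11.41.

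Genes for chaperones, which fold and refold proteins, rose, and none fell. Of 35 chaperone and heat shock genes tested, 18 rose and none fell, against 9.5% and 6.87% of all genes, and their median change was 0.70 against -0.03 over all genes. Besides HSP26 and HSP78, STI1, a cochaperone that links Hsp70 and Hsp90, had levels of 12.32, 12.15, 12.16 and 12.87 untreated and 14.07, 14.01, 14.21 and 14.24 under arsenite (change 1.76, SE 0.24, limma adjusted p = 1.91e-04). Changes of the called members ran down to 0.66, for CPR7. Members that did not pass included HSP104 (0.39), the cytosolic disaggregase, and HSP12 (-0.09), a membrane-associated stress protein. The list's median level relative to its untreated mean was 0.004, 0.01, -0.05 and 0.05 on the untreated arrays and 0.59, 0.67, 0.79 and 0.73 on the arsenite arrays, so the 2 groups of arrays lay well apart. The wild-type median was 0.79.

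The proteasome, which degrades ubiquitin-tagged proteins, had the most called members of the 26 gene lists. Of 57 proteasome and ubiquitin genes, 36 rose (63.2%) and 1 fell (1.75%), against 9.5% and 6.87% of all genes. The median was 0.63, beside 0.67 in the wild type. NPL4, a Cdc48 cofactor, went from 12.09, 12.50, 12.46 and 10.55 to 13.12, 13.44, 13.39 and 13.20, with untreated replicate 4 about 1.5 log2 units below the rest. Its change was 1.39 (SE 0.34, limma adjusted p = 0.0112). DDI1, a shuttle of ubiquitinated proteins, rose by 1.08, and RPN4, the activator of proteasome genes, by 0.84. Called core and regulatory subunits rose by up to 1.03 (RPN8), and most by less than 2-fold, as PRE9 (0.81), RPT6 (0.96) and RPN12 (0.96) did. The member that fell was IRC25 (-0.78), a chaperone of proteasome assembly. Without arsenite replicate 3 the number of higher calls was 24, the lowest with 1 array left out, and without untreated replicate 4 it was 44. The step between arrays left out, 11 members were called higher.

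Genes for enzymes that remove peroxides and repair oxidized proteins rose for the most part. Of 19 genes for thioredoxin, peroxidases and oxidant repair, 11 rose (57.9%) and 1 fell (5.26%), against 9.5% and 6.87% of all genes. The median was 0.78 beside 0.96 in the wild type. CCP1 and SRX1 led, followed by GPX2 (KLLA0F06732g), a glutathione peroxidase, with levels of 14.90, 14.91, 14.74 and 14.14 untreated and 16.05, 16.28, 16.40 and 16.32 under arsenite (change 1.59, SE 0.20, limma adjusted p = 8.65e-05). The gene that fell was SKN7 (-0.90), a response regulator of oxidative stress genes. TSA2 (0.25), CTT1 (-0.14), the cytosolic catalase, and SOD2 (-0.08), the mitochondrial superoxide dismutase, did not pass. The list's untreated medians by array were 0.18, 0.13, 0.03 and -0.22, and its arsenite medians 0.65, 0.90, 0.70 and 0.88. Untreated replicate 4 was the lowest, and without it the list's median was 0.51.

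Glutathione genes moved less evenly. Of 17 tested, 6 rose (35.3%) and 1 fell (5.88%), against 9.5% and 6.87% of all genes, and the median was 0.27. OPT1, a transporter of glutathione and peptides, rose by 1.28 (SE 0.21) and GRX4, a monothiol glutaredoxin of iron signalling, by 1.13 (SE 0.20). GSH1, the first enzyme of glutathione synthesis, rose by 0.65, while GSH2, the second, at 0.39, and GLR1, glutathione reductase, at 0.33, did not pass. ECM4, a glutathione transferase, rose by 1.11 (limma adjusted p = 0.0232), a call lost without arsenite replicate 1, 2 or 4 (log2 change 1.02 to 1.12). GTT3 fell (-0.92).

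Sulfur assimilation supplies the cysteine that glutathione is made from. Of its 35 genes tested, 11 rose (31.4%) and 1 fell (2.86%), against 9.5% and 6.87% of all genes, with a median of 0.23. HOM3, aspartate kinase, which feeds homoserine into methionine, had levels of 13.59, 13.64, 13.44 and 13.69 untreated and 14.77, 14.99, 15.21 and 15.003 under arsenite (change 1.40, SE 0.23, limma adjusted p = 7.70e-04). SUL2, a sulfate permease, rose by 1.32 (SE 0.24) and MET16, which reduces activated sulfate, by 1.27 (SE 0.18). The sulfonate dioxygenase JLP1, at 0.17, did not pass. The gene that fell was CBF1 (-0.76), which binds promoters of methionine genes, and no member was called lower when any 1 of the arsenite arrays was left out. Of 12 pentose phosphate and NADPH genes 1 rose (8.33%, near the 9.5% of all genes). It was ZWF1 (0.88, SE 0.17), the glucose-6-phosphate dehydrogenase that makes NADPH.

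Genes of the machinery that builds iron-sulfur clusters rose, and none fell. Of 28 assembly genes, 15 rose (53.6%) and none fell, against 9.5% and 6.87% of all genes. The median was 0.61 beside 0.67 in the wild type. NAR1 (KLLA0D19833g), of the cytosolic assembly complex, had levels of 12.68, 12.60, 12.79 and 11.73 untreated and 14.12, 14.56, 14.10 and 14.40 under arsenite. The groups lay more than 1 log2 unit apart, and the change was 1.85 (SE 0.21, limma adjusted p = 3.97e-05). YAH1, the mitochondrial ferredoxin, rose by 1.39 and ERV1, a thiol oxidase of the mitochondrial intermembrane space, by 1.39. List medians by array were -0.004, 0.06, 0.07 and -0.21 untreated and 0.56, 0.58, 0.68 and 0.62 under arsenite, without overlap.

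Iron uptake genes showed no common direction, and 10% were called higher and 15% lower, against 9.5% and 6.87% of all genes. Of 20 tested, 2 rose (FIT2 at 1.09, a cell wall protein that retains siderophore iron, and GGC1 at 0.61, the mitochondrial GTP carrier) and 3 fell (FRE1, ATX1 and CTH1 at -0.91, an mRNA-binding protein). FET3 (-0.03) and FTR1 (-0.27), the high-affinity iron uptake complex, did not pass. Levels of FIT2 were 15.07, 15.34, 15.35 and 13.65 untreated and 15.99, 15.73, 15.99 and 16.06 under arsenite. Untreated replicate 4 was far below the rest, and without that array the change of FIT2 was 0.63. Its call was lost without arsenite replicate 1, 3 or 4 (log2 change 1.05 to 1.08). The median of the list was -0.16, and 0.14 with no normalization between arrays.

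Of 16 symbols listed for arsenic uptake, export and sequestration, 8 were matched to tested genes, and ARR3 was not among the 8. Of the 8, 2 rose (25%) and 1 fell (12.5%), against 9.5% and 6.87% of all genes. YCF1 (KLLA0F20075g), the vacuolar pump of glutathione conjugates, had levels of 12.10, 11.93, 12.20 and 12.19 untreated and 13.19, 13.06, 13.01 and 13.13 under arsenite. The groups were tight and did not overlap (change 0.99, SE 0.11, limma adjusted p = 2.37e-05), beside 1.36 in the wild type. ARR2 (KLLA0E00243g) had levels of 8.34, 8.22, 8.06 and 7.50 and 8.82, 9.09, 9.10 and 9.13, again with no overlap, a change of 1.01 (SE 0.18, limma adjusted p = 0.00187). FET4 (KLLA0E14499g), a low-affinity iron and metal transporter, went from 9.03, 9.12, 9.54 and 9.12 to 7.999, 8.17, 7.86 and 7.97 and fell by 1.20 (SE 0.15, limma adjusted p = 7.41e-05). FPS1, the aquaglyceroporin, at -0.59 (SE 0.27), HOG1, a stress kinase, at 0.23, and BPT1, a vacuolar pump like Ycf1, at 0.38, did not pass. Nor did PHO90, a phosphate transporter, at -0.21, or ARR1, the gene taken as deleted.

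Multidrug and metal efflux genes had 5 of 13 members higher (38.5%) and none lower, against 9.5% and 6.87% of all genes. PDR1, the regulator of multidrug pumps, rose by 0.93 (SE 0.18), RSB1, which exports sphingoid bases, by 0.86 (SE 0.12) and TPO1, a polyamine exporter, by 0.81 (SE 0.17). The call of TPO1 was lost with each channel scaled to its 75th percentile (log2 change 0.59, limma adjusted p = 0.0504). It was also lost with all 12 arrays (log2 change 0.81, limma adjusted p = 0.081). The other 2 were SNQ2 (0.63) and YOR1 (0.53), both ABC transporters. The list's median was 0.18, and -0.01 with each channel scaled to its 75th percentile.

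**Figure D3:**
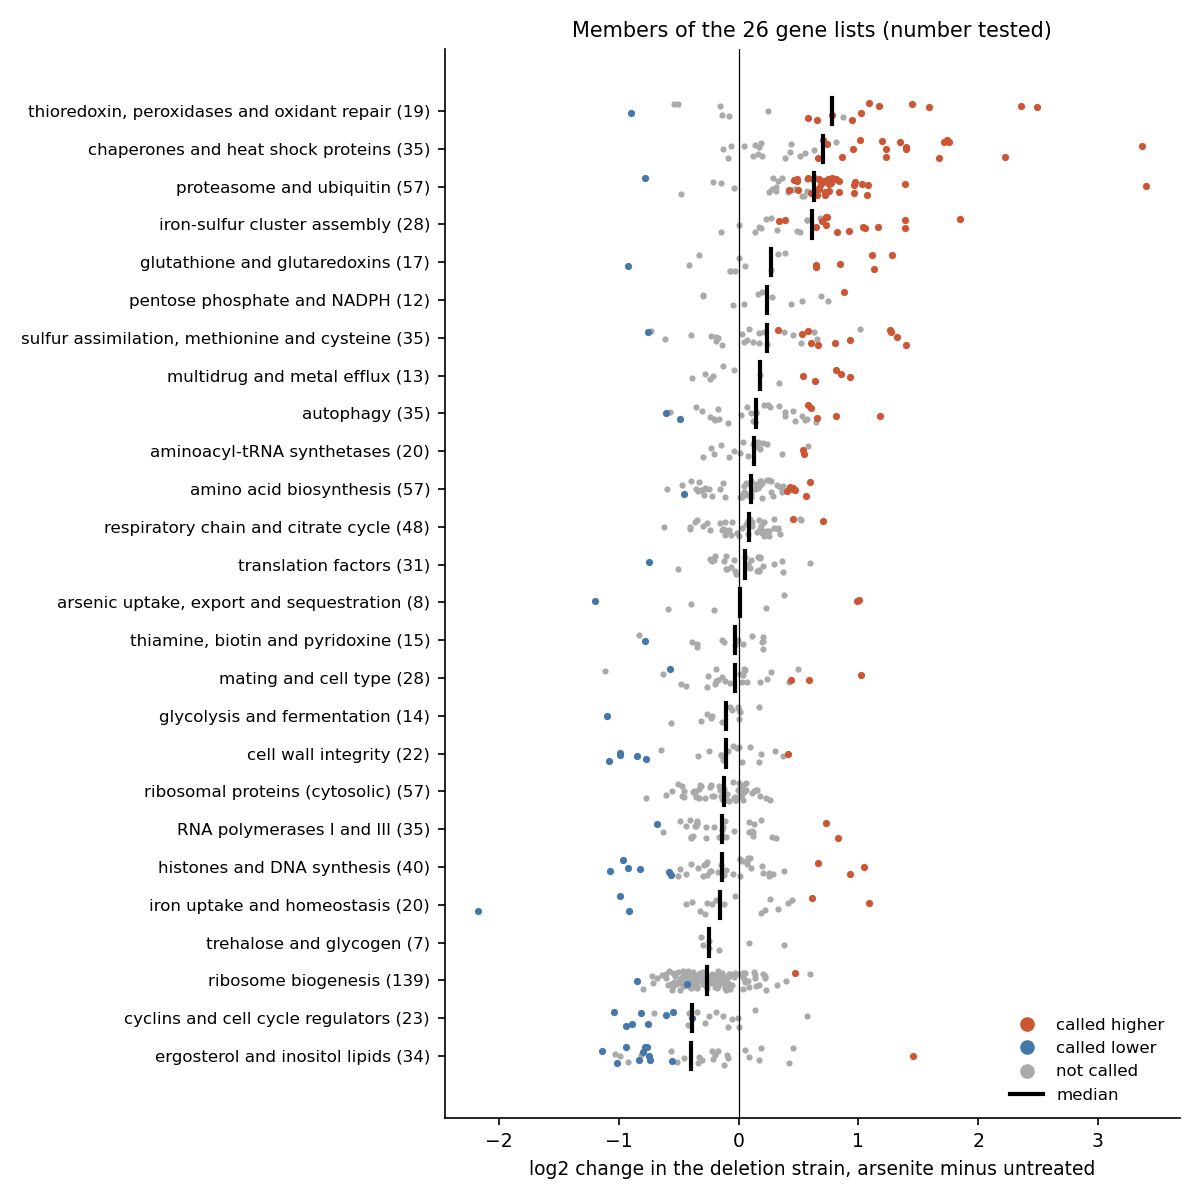
Log2 change under arsenite in the deletion strain (x axis) of each tested member of the 26 gene lists (y axis, with the number tested), coloured by call, with the list median as a black bar. Medians run from 0.78 for thioredoxin, peroxidases and oxidant repair and 0.70 for chaperones down to -0.40 for ergosterol and inositol lipids.

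Sterol synthesis genes fell in part. Of 34 genes for ergosterol and inositol lipids, 10 fell (29.4%) and 1 rose (2.94%), against 6.87% and 9.5% of all genes. The median was -0.40. UPC2 (KLLA0A04169g), the activator of sterol genes, had levels of 12.25, 12.55, 12.40 and 13.12 untreated and 12.01, 11.32, 11.15 and 11.27 under arsenite, where arsenite replicate 1 reached within 0.3 of the lowest untreated channel (change -1.14, SE 0.25, limma adjusted p = 0.00537). ERG25, a sterol oxidase, fell by 1.02 (SE 0.19). ERG11 (-1.03), the target of azole drugs, and ERG6 (-0.99), the sterol methyltransferase, had changes of like size and did not pass. ITR1, the inositol transporter, was the member that rose, from 10.02 ± 0.07 to 11.47 ± 0.16 (mean ± SD, n = 4 each; change 1.46). Untreated medians of the list by array were -0.24, -0.12, -0.21 and 0.51 and arsenite medians -0.44, -0.43, -0.40 and -0.47. Untreated replicate 4 stood alone on the high side. Without it the list's median was -0.24, with 14 members called lower. With no normalization between arrays the median was -0.16 and none was called lower.

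Cell cycle and cell wall genes fell in part. Of 23 cyclins and cell cycle regulators, 8 fell (34.8%) and none rose, against 6.87% and 9.5% of all genes. Their median was -0.39. PCL1, a G1 cyclin of the kinase Pho85, had levels of 12.83, 13.14, 12.77 and 13.76 untreated and 11.94, 12.10, 12.56 and 11.72 under arsenite, and fell by 1.05 (SE 0.25, limma adjusted p = 0.00978). Its relative PCL2 fell by 0.94 with overlapping groups, and both calls were lost without arsenite replicate 1. CDC20, an activator of the anaphase-promoting complex, fell by 0.89, a call lost without arsenite replicate 1, 2, 3 or 4 (log2 change -0.91 to -0.87), and its change was -0.52 without untreated replicate 4. Without arsenite replicate 1 the list had 2 called members, and without replicate 2, 3 or 4 of that group it had 4. The median was -0.08 with no normalization between arrays, and no member was called.

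Of 22 cell wall integrity genes, 5 fell (22.7%) and 1 rose (4.5%), against 6.87% and 9.5% of all genes. Those that fell were CWP1 (-1.08), a wall mannoprotein, CRH1 (-0.99), which links chitin to glucan, CHS2 (-0.99), the chitin synthase of the septum, CHS7 (-0.85) and GAS1 (-0.77). The one that rose was SLT2 (0.41), the kinase of the cell wall integrity pathway. The median of -0.11 became 0.16 with no normalization between arrays.

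Several histone genes fell, while RAD54, a gene of recombination repair, rose. Of 40 genes for histones and DNA synthesis, 3 rose (7.5%) and 6 fell (15%), against 9.5% and 6.87% of all genes. Their median was -0.14, and 0.17 with no normalization between arrays. RAD54 had levels of 10.39, 10.41, 10.52 and 10.03 untreated and 11.20, 11.36, 11.68 and 11.29 under arsenite (change 1.05, SE 0.14, limma adjusted p = 1.99e-04). RNR3 (0.66), a ribonucleotide reductase subunit, also rose. HTB2, a histone H2B gene, had levels of 15.35, 15.34, 14.63 and 15.47 untreated and 13.99, 14.07, 14.63 and 14.24 under arsenite, and fell by 0.97 (SE 0.22). Untreated replicate 3 and arsenite replicate 3 were level for HTB2, and the other channels were well apart. HHF1 (-0.83), HHF2 (-0.93) and HTA1 (-0.57) fell as well, and paired histone genes have near-identical sequences that may share signal. CDC6, which loads the replicative helicase, fell by 1.08, a call lost without arsenite replicate 1, 2 or 4 or untreated replicate 2 (log2 change -1.10 to -0.93). CDC45 (-0.58) was the sixth.

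Few genes of protein synthesis were called in the deletion strain. None of 57 cytosolic ribosomal protein genes was called by limma, and the median was -0.12 beside -0.70 in the wild type, where 25 were called lower. None of them was called in the difference between strains, whose median was 0.53. The list medians by array were -0.14, -0.25, -0.25 and 0.60 untreated and -0.33, -0.23, 0.38 and -0.34 under arsenite. Untreated replicate 4 and arsenite replicate 3 were the 2 high arrays, and the groups overlapped. Without untreated replicate 4 the median was 0.04 with 1 member higher, and with no normalization between arrays it was 0.03.

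Of 139 ribosome biogenesis genes, 1 rose (0.72%) and 2 fell (1.44%), against 9.5% and 6.87% of all genes. A change below 0 was seen in 117 of the 139, and the median was -0.26. SQT1, a chaperone of a ribosomal protein, rose by 0.47, a call lost without arsenite replicate 1, 2, 3 or 4 or untreated replicate 2 or 3 (log2 change 0.38 to 0.53). UTP14 (-0.85), of the small subunit processome, had its call lost without arsenite replicate 1 (log2 change -0.78), and UTP25 (-0.43) lost it without arsenite replicate 1, 2, 3 or 4 or untreated replicate 1, 2 or 3 (log2 change -0.48 to -0.36). Without untreated replicate 4, 41 members were called lower. Its median was 0.03 with no normalization between arrays, and no member was called.

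Of 35 genes of RNA polymerases I and III, 2 rose (5.71%) and 1 fell (2.86%), against 9.5% and 6.87% of all genes. Those that rose were BRF1 (0.83), an initiation factor of polymerase III, and RET1 (0.73), a large subunit of it. RPC53 (-0.68), a further subunit of polymerase III, was the member that fell, a call lost without arsenite replicate 1, 2, 3 or 4 or untreated replicate 1 or 2 (log2 change -0.75 to -0.61). Of 31 translation factors 1 fell (3.23%, against 6.87% of all genes), CAM1 (-0.75), a subunit of an elongation factor. Of 20 aminoacyl-tRNA synthetases 2 rose (10%, near the 9.5% of all genes). ALA1, for alanine, rose by 0.53, a call lost without arsenite replicate 3 (log2 change 0.47), and ILS1, for isoleucine, by 0.55 with overlapping groups, a call lost on leaving out any array other than untreated replicate 4 (log2 change 0.43 to 0.59).

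**Figure D4:**
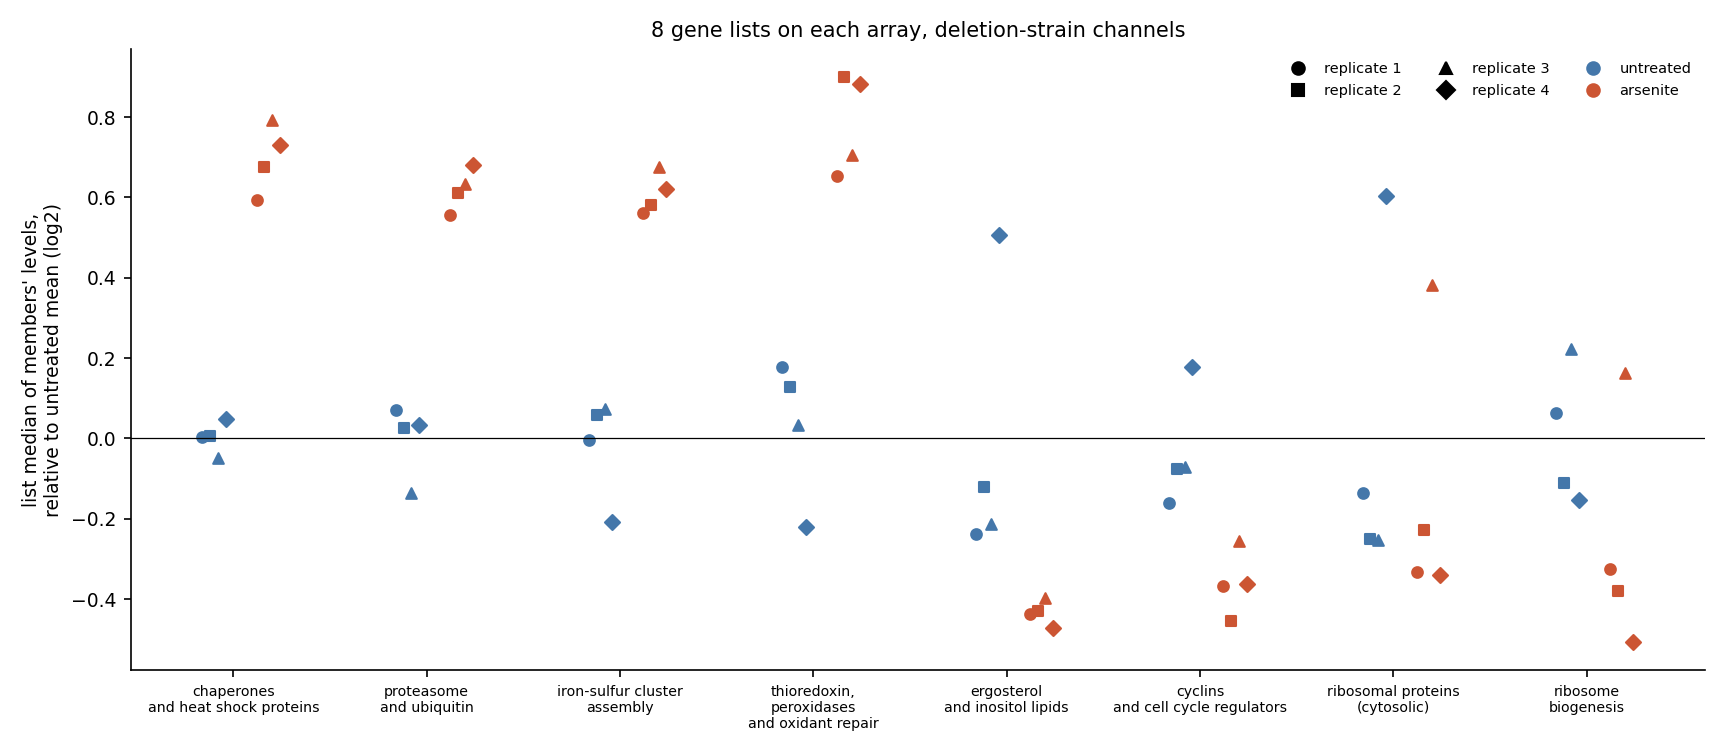
Median log2 level of the members of 8 gene lists on each of the 8 arrays (y axis), relative to each member's untreated mean, in the deletion-strain channels, with the replicate number as the symbol. Medians of the chaperone, proteasome, iron-sulfur assembly and oxidant repair lists do not overlap between untreated and arsenite arrays. Those of ribosomal proteins overlap, and untreated replicate 4 (0.60) and arsenite replicate 3 (0.38) are high.

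Amino acid biosynthesis had 6 of 57 genes higher (10.5%, near the 9.5% of all genes) and 1 lower (1.75%). PHA2, of phenylalanine synthesis, rose by 0.60 (SE 0.10). HIS3, of histidine synthesis, rose by 0.56, a call lost without arsenite replicate 2 or 3 (log2 change 0.46 to 0.55), and ARO3, of aromatic amino acid synthesis, by 0.47, a call lost without arsenite replicate 1, 2, 3 or 4 or untreated replicate 1 or 2 (log2 change 0.39 to 0.55). LYS12 (-0.46), of lysine synthesis, was the member that fell. Of 48 genes of the respiratory chain and citrate cycle 2 rose (4.17%, against 9.5% of all genes). They were RIP1 (0.71), the Rieske iron-sulfur protein, and DLD1 (0.46), D-lactate dehydrogenase. The call of DLD1 was lost without arsenite replicate 4 or untreated replicate 2 (log2 change 0.40 to 0.41). Of 14 genes of glycolysis and fermentation 1 fell (7.14%, near the 6.87% of all genes), the alcohol dehydrogenase gene ADH4 (-1.10, SE 0.24). BUD16 (-0.79), a putative pyridoxal kinase, was the one called of 15 thiamine, biotin and pyridoxine genes (6.67% lower, near the 6.87% of all genes). None of 7 trehalose and glycogen genes was called by limma.

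Autophagy genes had 5 of 35 members higher and 2 lower, with a median of 0.14 beside 0.44 in the wild type, where 16 were higher. The shares in the deletion strain, 14.3% higher and 5.71% lower, stood near the 9.5% and 6.87% of all genes. ATG1, the kinase that starts autophagy, had levels of 12.51, 12.25, 12.53 and 10.93 untreated and 13.37, 13.20, 13.14 and 13.23 under arsenite, with untreated replicate 4 the lowest by over 1 log2 unit (change 1.18, SE 0.29, limma adjusted p = 0.0116). Without that array the change of ATG1 was 0.77. ATG20 (0.82), a sorting nexin, had its call lost without arsenite replicate 1, 2, 3 or 4 or untreated replicate 2 (log2 change 0.80 to 0.83). ATG15 (0.65), a vacuolar lipase, had it lost without arsenite replicate 1, 2 or 4 (log2 change 0.62 to 0.65). ATG3 (0.61) and ATG7 (0.58), of the conjugation of Atg8, also rose, and ATG16 (-0.61) and ATG44 (-0.49) fell. Without arsenite replicate 1, 2 or 4 the number of higher calls was 1. Of 28 mating and cell type genes 3 rose (10.71%, near the 9.5% of all genes), KAR4 (1.02), a regulator of nuclear fusion genes, STE3 (0.59), the a-factor receptor, and STE12 (0.44), the pheromone-response activator. FIG1 (-0.57), of the mating response, was the member that fell, a call lost without arsenite replicate 1, 2 or 4 or untreated replicate 1 (log2 change -0.59 to -0.52) and with the scanner's processed signals (-0.29, limma adjusted p = 0.0651).

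The response of the deletion strain differed from that of the wild type for 13 genes (0.257% of those tested), 10 with a lower and 3 with a higher value in the deletion strain. An unadjusted p under 0.05 was reached by 692. Of the 13, ARR2, KLLA0C19547g and ZTA1 were called in the deletion strain by itself, and the other 10 were not. The median SE of a difference was 0.16, and a difference that was not called is not shown to be 0. ARR2 rose in the wild type from 9.80, 9.72, 9.64 and 9.56 to 13.004, 13.42, 13.50 and 13.81, a change of 3.75 beside 1.01 in the deletion strain. The wild type stood above the deletion strain on all 8 arrays, and the gap widened under arsenite (difference -2.75, SE 0.18, limma adjusted p = 4.06e-07). ARR2 and ARR1 are neighbours, 6 and 7 genes from an end of chromosome E. Untreated ARR2 means were 8.03 in the deletion strain and 9.68 in the wild type. Whether the deletion acted on ARR2 through its position was not tested. ARR1 itself was at 0.56 in the wild type (difference -0.96, SE 0.16, limma adjusted p = 0.0198). As it is the gene taken as deleted, its difference is no measure of a changed response, though it is counted among the 13. Without untreated replicate 4 its deletion-strain value was -0.20 in place of -0.40.

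JLP1 (KLLA0F26158g), which frees sulfite from sulfonates, had deletion-strain levels of 8.58, 8.50, 8.76 and 8.42 untreated and 8.78, 8.90, 8.55 and 8.69 under arsenite. The groups overlapped. In the wild type its levels were 8.44, 8.44, 8.65 and 8.58 and 10.85, 11.35, 10.41 and 9.87, all 4 arsenite values above all untreated ones. The changes were 0.17 and 2.09 (difference -1.92, SE 0.23, limma adjusted p = 9.94e-04). ARR2 and JLP1 were the genes of the 13 whose difference was called under each of the 18 alternatives.

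STE6, a pump that exports a-factor, was at 0.42 in the deletion strain and 2.22 in the wild type (difference -1.80, SE 0.32). KLLA0D02420g, with levels near the background in the deletion strain (well above it on 3 of 4 arrays of each group), was at -0.09 and 1.59. STN1, of telomere capping, was at -0.11 and 0.77, and SSN2, a subunit of Mediator, at 0.10 and 0.88. None of these 4 was called in the deletion strain, and each was called in the wild type.

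A smaller rise than in the wild type was seen for KLLA0C19547g, which lies at a chromosome end. Its deletion-strain levels were 9.06, 9.39, 8.90 and 8.55 untreated and 11.03, 11.29, 10.48 and 10.99 under arsenite, with no overlap (change 1.97, SE 0.29, beside 3.67 in the wild type). ZTA1, a quinone reductase like zeta-crystallin, rose by 1.45 beside 2.18 (difference -0.73, SE 0.14, limma adjusted p = 0.0434). FES1, a nucleotide exchange factor of Hsp70, was at 0.63 beside 1.80. Its deletion-strain value was not called (limma adjusted p = 0.069) but passed without untreated replicate 4 (log2 change 0.68, adjusted p = 0.0172).

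The 3 genes with a higher value in the deletion strain were FUI1, MAE1 and KLLA0B01397g. FUI1, the uridine permease, was at 0.32 in the deletion strain and -0.92 in the wild type (difference 1.24, SE 0.22, limma adjusted p = 0.0348). MAE1, the mitochondrial malic enzyme, was at -0.33 and -1.11, and KLLA0B01397g at -0.23 and -0.85. No call was made for the 3 in the deletion strain, though KLLA0B01397g passed there without untreated replicate 4 (log2 change -0.31, adjusted p = 0.0242).

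The difference calls were few and moved with single arrays. In a limma fit to the ratios of the authors' deposited table, ARR2 and JLP1 were called and the other 11 were not, with adjusted p from 0.0944 to 0.223. On arsenite replicate 4 the wild-type level was the lowest of the 4 for 8 of the 10 genes with a lower value in the deletion strain. It was the highest for all 3 with a higher value. The like counts over all genes tested were not taken, so these numbers do not set the 13 genes apart. With arsenite replicate 4 left out 80 genes were called, 18 higher and 62 lower, and all 13 remained. Without arsenite replicate 1, 2 or 3 there were 2, 3 and 3 calls, without untreated replicate 1 there were 2, and without untreated replicate 2 there were 21. With untreated replicate 4 left out there were 7. Over the alternatives the difference stayed within -2.17 to -1.46 for STE6, -2.01 to -1.49 for KLLA0C19547g, -1.96 to -1.02 for KLLA0D02420g, -1.43 to -1.02 for FES1 and 1.05 to 1.44 for FUI1. For ARR1 it was -1.06 to -0.76, for STN1 -1.005 to -0.79, for SSN2 -0.94 to -0.68, for ZTA1 -0.86 to -0.62, for MAE1 0.70 to 0.91 and for KLLA0B01397g 0.51 to 0.71. Each of these 11 lost its call without arsenite replicate 1, and 10 of them, all but KLLA0D02420g, also without arsenite replicate 2.

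**Figure D5:**
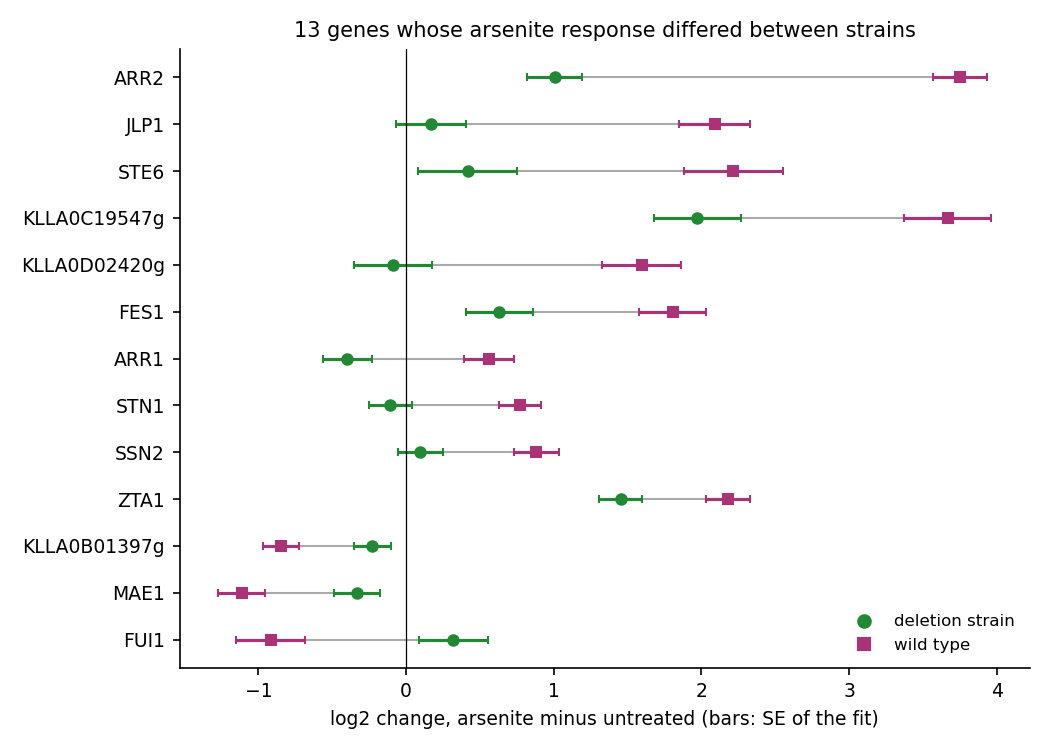
Log2 change under arsenite (x axis) in the deletion strain (circles) and the wild type (squares), with SEs of the fit, for the 13 genes whose response differed between strains (y axis). ARR2 shows the widest gap, 1.01 beside 3.75. FUI1 is among the genes whose values lie on opposite sides of 0, as is ARR1, the gene taken as deleted.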

How the data were processed

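Per the file headers, the deposited scans held spot and local background intensities of 2 dyes, read with Feature Extraction 10.7.3.1, protocol GE2_107_Sep09. The deposited log2 ratio table, with no method stated, followed the scans with r between 0.993 and 0.999 and slopes of 1.01 to 1.03, as deletion strain over wild type, and its column medians lay between -0.02 and 0.00.

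Groups came from the labels. In R 4.3.3 with limma 3.58.1, median intensities were background-corrected (normexp, offset 50), normalized by loess within and by Aquantile between arrays, and spots of a gene were averaged. Of 5081 genes, 16 were left out, since neither channel was well above background on 4 or more of the 8 arrays. The 2 strains' channels of 8 arrays entered a separate-channel fit (intraspot correlation 0.542) with dye as a covariate. Significance was by limma's moderated test with Benjamini-Hochberg adjustment. Precision is limited by how many arrays there are. The calculation was tested on simulated data.

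Symbols of 3955 genes came from the RefSeq table of locus tags, and 1126 genes keep their locus tag. Named genes are the 15 highest and 15 lowest called genes whose groups did not overlap, in each list the 3 called genes that moved most, ARR1 and ARR2, and up to 10 called difference genes each way. Further list members were named after their values were seen. Some list members are not reported here. Comparison, members and lists were chosen with earlier results of these data known. Promoter motifs were planned and not run, and the t-BOOH arrays entered 1 alternative alone. Alternatives changed the background correction, signal, normalization, filter, dye term, replicate block, arrays and channels. Replicate numbers were not taken to pair samples: deviations of same-numbered arrays correlated at 0.60, -0.28, 0.37 and 0.49.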

Additional observations from a re-analysis of the deposited data

Results flagged for a closer look

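In 250 groups of 4 channels, 1 array stood far from the other 3 by Dixon's test in 27. For 1 group by itself the critical value is passed by chance about 1 time in 20. The 250 groups came from the same 8 arrays, and many genes were named by these levels. That rate is therefore no measure for the 27. Untreated replicate 4 was the array in 12 of the 27 and arsenite replicate 3 in 11.

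Untreated replicate 4 had the lowest mean correlation with its group (0.938). It was low for FIT2 (13.65), ATG15 (11.89), ECM4 (12.93) and SRX1 (12.67) and high for ARR1 (11.56) and CDC20 (11.02). Its list medians were high for ribosomal proteins (0.60), aminoacyl-tRNA synthetases (0.41), amino acid biosynthesis (0.11) and ergosterol and inositol lipids (0.51), and low for autophagy (-0.39). Without that array FIT2 was at 0.63 against 1.09, CDC20 at -0.52 against -0.89, ECM4 at 0.77 against 1.11, ATG15 at 0.51 against 0.65 and SRX1 at 2.07 against 2.36, and all 5 kept their call.

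Arsenite replicate 3 had the lowest mean correlation in its group (0.987). It was low for SPO22 (9.68) and CSM3 (9.90) and high for CHS2 (11.42), ILS1 (14.53), ALA1 (14.22) and PCL2 (12.26). Its list medians were high for ribosomal proteins (0.38), RNA polymerases I and III (0.025), translation factors (0.29) and aminoacyl-tRNA synthetases (0.33). Of those 6 genes, ILS1 and ALA1 lost their call without it.

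Single channels also stood apart for HTB2 in untreated replicate 3 (14.63), for ARR2 in arsenite replicate 1 (8.82), and for KLLA0D02420g in untreated replicate 1 (6.49) and arsenite replicate 1 (6.81), a gene near the background.

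The response to arsenite differed between strains by the test of the difference for 13 genes, with ARR1, the gene taken as deleted, counted among them. The deletion-strain change minus the wild-type change was -2.75 for ARR2, -1.92 for JLP1, -1.80 for STE6, -1.70 for KLLA0C19547g and -1.68 for KLLA0D02420g. It was -1.17 for FES1, -0.96 for ARR1, -0.88 for STN1, -0.78 for SSN2 and -0.73 for ZTA1. Above 0 it was 1.24 for FUI1, 0.78 for MAE1 and 0.62 for KLLA0B01397g.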

How the results depend on the processing

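With no normalization between arrays the calls were 140 higher and 2 lower in the deletion strain, 422 and 42 in the wild type and 7 higher in the difference. Both strains' median change over all genes was 0.26 there, 8 wild-type calls turned sign and 9 list medians changed sign. With all 12 arrays the lower calls were 192 in the deletion strain and 507 in the wild type, and 1 difference gene was higher. With each channel scaled to its 75th percentile the difference had 1 higher and 4 lower calls, without the dye term 1 higher, and in the authors' deposited ratios 0 higher and 2 lower. The cause was not tested. With 1 array left out the deletion strain had 322 to 797 higher and 151 to 759 lower calls, the wild type 575 to 1163 and 393 to 1174, and the difference 0 to 18 and 2 to 62. The number called and changed at least 2-fold, 146, ran from 125 to 177 over all alternatives.

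With the replicate number as a block the deletion strain had 501 higher and 377 lower calls, and the difference had 0 higher and 3 lower (ARR2, JLP1 and KLLA0C19547g), with adjusted p of 0.088 to 0.224 (limma) for the other 10. Of arrays 1 to 4, numbers 1 and 3 correlated best with their own number, so the numbers were not taken as pairs. Of 54 named risen genes, 33 kept their call under all 18 alternatives, and of 34 named fallen genes 1 did. With the alternative of no normalization between arrays set aside, 24 of the 34 fallen genes kept theirs, that 1 among them. Of 1998 single-gene values 259 fell below and 4 rose above the threshold, and no called value turned sign, while the deletion-strain values of 3 genes not called there did (STN1, KLLA0B01397g and KLLA0D02420g). Of 468 list medians 57 moved by over 1 SD, 22 of them with no normalization between arrays. Signal over background limited few of the tested genes in the deletion strain, since at least 98.7% were well above it in each deletion-strain channel. The 16 dim genes had been left out before.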
